A study of Drosophila melanogaster with 16 samples.

Results

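The Osiris and Tweedle genes of Drosophila melanogaster were followed in the larval midgut, on both sides of the moult from the second to the third larval stage and with or without silencing of Hnf4. The genes were taken by symbol, Osi followed by a digit or Twdl, from the 17873 genes of the count table. This gave 51 genes, 25 Osiris and 26 Tweedle. The gene Tubby (Tb), which the annotation also lists as TwdlA, carries another symbol and is not among them.

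Osiris genes are a family found in insects. They encode small proteins that enter the secretory pathway, and most of them stand side by side in one cluster whose gene order is conserved between insect orders. They are expressed where cuticle is laid down: Osi9, Osi15 and Osi19 are needed together for the maturation of tracheal tubes, and Osi23, also called gore-tex, for the pores of olfactory bristles. Tweedle genes encode structural proteins of the cuticle, and dominant mutations of TwdlD make larvae and pupae short and squat. Cuticle is made by the epidermis, the trachea, the foregut and the hindgut. The midgut itself has no cuticle, but it is wrapped in tracheal branches and is joined at its ends to foregut and hindgut.

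Messenger RNA was sequenced from dissected midguts of 4 groups with 4 biological replicates each. All larvae carried the mex-GAL4 driver, which acts in enterocytes, the absorptive cells of the midgut. Control larvae (mex-GAL4 / attP40) had the attP40 landing site beside the driver, and Hnf4i larvae a UAS-Hnf4 RNAi hairpin, which silences the nuclear receptor gene Hnf4. All were raised on a yeast diet, 40 embryos to a vial, and midguts were taken on day 3 (late L2, 30 midguts per library) or day 4 (early L3, 10 midguts per library). Silencing was therefore limited to cells with mex-GAL4 activity, it rested on 1 hairpin, and pools of midguts were measured rather than single animals.

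Each library held between 44528826 and 83381600 counts. Levels are given as CPM, the counts of a gene relative to the TMM-scaled total of its library, and levels of different genes are compared only as CPM per kb of exon. Hnf4 is the targeted gene, and on day 3 its mean level was 91.9 ± 2.69 CPM in the control libraries against 48.4 ± 2 CPM in the Hnf4i libraries (mean ± SD, n = 4). The day 4 means were 128 ± 4.09 and 64.6 ± 4.31 CPM. It was lower in all 4 Hnf4i libraries of each day (exact two-sided permutation test, p = 0.0286, the smallest that 4 against 4 libraries allow). Summed markers of enterocytes lay between 2839 and 2976 CPM on day 3 and between 5348 and 6322 CPM on day 4, so the tissue label held in every library. Fat body markers summed to between 11.6 and 41.5 CPM on day 3 but reached 137 CPM in a control library and 2774 CPM in an Hnf4i library on day 4.

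Osiris genes lie mostly in one place. In the BDGP6 build, 22 of the 25 are found within 168 kb of chromosome arm 3R (3R:6173549-6341424), 20 of them on the plus strand. Osi22 (3R:13290629-13291846) and Osi23 (3R:30444076-30445046) lie elsewhere on the same arm, and Osi21 (2L:11284327-11285706) overlaps exons of mre11 on the opposite strand. Their longest annotated proteins have between 202 and 750 residues, with a median of 288. Tweedle genes form smaller groups. Of these, 12 stand in a row on 3R from TwdlM to TwdlD (3R:26619118-26641054), 4 more on 3R from TwdlU, which is annotated as a pseudogene, to TwdlV (3R:4243606-4255833), and 4 on the X chromosome from TwdlX to Twdlalpha (X:16731091-16744365). Twdlbeta stands alone on 2R (2R:11862537-11863252), and the 25 Tweedle proteins have between 197 and 388 residues.

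Expressed and nearly silent genes alternated within the Osiris cluster in late L2 midguts. Of the 22 genes of the cluster, 11 passed the filter on low counts (Osi24, Osi2, Osi6, Osi7, Osi9, Osi14, Osi15, Osi17, Osi18, Osi19 and Osi20). The 11 genes that did not pass stand among them, not at one end: Osi1 comes first, Osi3, Osi4 and Osi5 follow Osi2, Osi8 separates Osi7 from Osi9, Osi10a, Osi10b, Osi11, Osi12 and Osi13 fill the middle, and Osi16 stands between Osi15 and Osi17. Osi16 (3R:6305247-6306366) is the next gene after Osi15 (3R:6301804-6303653), the most abundant member. On day 3 Osi16 averaged 0.0591 CPM per kb in the control libraries, where Osi15 averaged 282 CPM per kb.

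**Figure D1:**
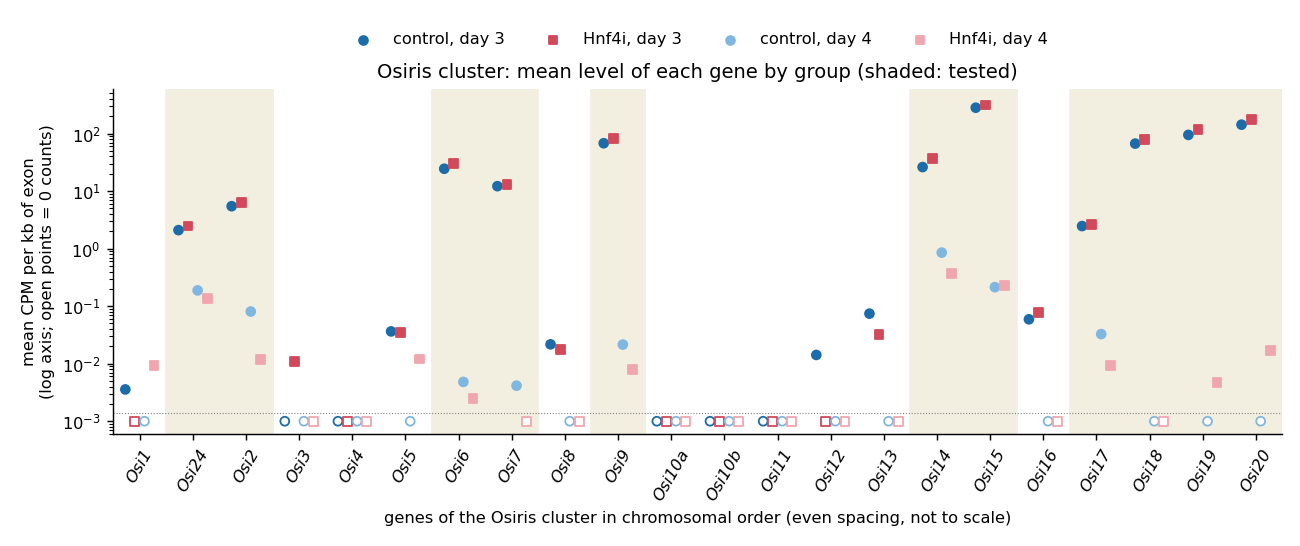
Mean CPM per kb of exon (log axis, n = 4 libraries per group) of the 22 genes of the Osiris cluster, in chromosomal order with even spacing; circles are control, squares Hnf4i, dark day 3, pale day 4, open points 0 counts, and shading marks the 11 genes that were tested. The shaded genes sit between 2.1 and 314 CPM per kb on day 3 and under 1 CPM per kb on day 4, and unshaded genes lie between them.

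Osi15 led the family. It was at 166, 371, 438 and 413 CPM in the control libraries of day 3 and at 361, 330, 485 and 370 CPM in the Hnf4i libraries. It made up between 32.1 and 40.5% of all Osiris counts in these libraries, and together with Osi20 between 50.5 and 61.7%. Per kb of exon, the order in control midguts on day 3 was Osi15 (282 CPM per kb), Osi20 (143), Osi19 (95), Osi9 (68), Osi18 (67), Osi14 (26.2), Osi6 (24.5), Osi7 (12.2), Osi2 (5.47), Osi17 (2.47) and Osi24 (2.1). The first 3 steps of this order held in 8 of the 8 day 3 libraries. Osi9 was above Osi18 in only 5 of 8, and Osi14 above Osi6 in 5 of 8, so these neighbours were not separated.

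Day 3 libraries of the same genotype differed, and most Osiris genes differed in the same libraries. Summed over the family, the control libraries held 519, 915, 1190 and 1162 CPM and the Hnf4i libraries 1029, 937, 1433 and 1048 CPM. Control replicate 1 was the lowest control library for 8 of the 11 expressed members of the cluster and replicate 2 for the other 3. Hnf4i replicate 3 was the highest Hnf4i library for 9 of the 11. Between the lowest and the highest of the 8 libraries the level of a member varied by between 1.91 times (Osi17) and 3.78 times (Osi2). Osi2 was the only one of the 11 with both extremes in Hnf4i libraries, with its lowest level, 4.14 CPM, in Hnf4i replicate 1 and its highest, 15.6 CPM, in Hnf4i replicate 4.

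**Figure D2:**
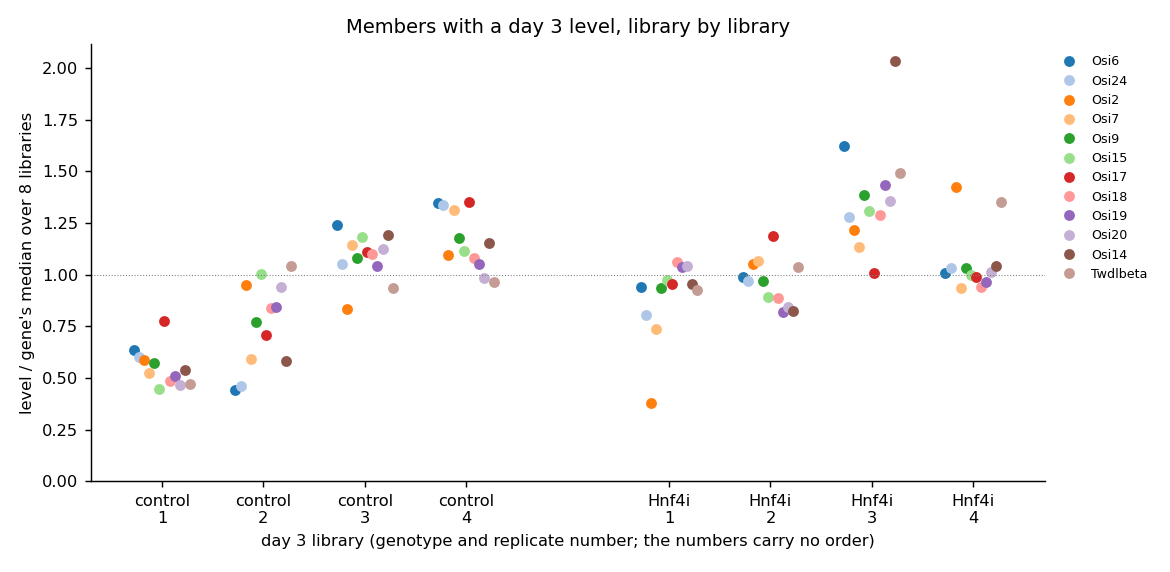
Level of the 11 expressed Osiris genes of the cluster and of Twdlbeta in each of the 8 day 3 libraries, divided by the median of that gene over the 8 libraries; replicate numbers have no order. For each of the 12 genes control replicate 1 sits below the median line at 1 and Hnf4i replicate 3 above it.

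The first comparison asked how the families change in control midguts between late L2 and early L3. All 11 expressed genes of the Osiris cluster fell, and 7 of them kept under 0.1% of their day 3 level. Summed over the family, control midguts went from between 519 and 1190 CPM on day 3 to between 1.83 and 2.9 CPM on day 4. In the test, a gene was called when its adjusted p was under 0.05 (edgeR's quasi-likelihood test, Benjamini-Hochberg over 9801 genes) and its log2 change at least 0.5. This called 11 of 12 tested Osiris genes lower and 0 higher, and 3 of 6 tested Tweedle genes lower and 0 higher, where 22.2% of all tested genes were called lower and 17% higher. These counts are not support for a change of the families, because 8 of the 12 Osiris and 2 of the 6 Tweedle genes passed the filter only through their day 3 level and so had to differ. Fewer cells expressing a gene and less RNA per cell cannot be told apart in such libraries. Markers of trachea and epidermis were also lower on day 4, with values given at the end.

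The members that kept a measurable level on day 4 show how far the fall went. Osi15 dropped from the values above to 0.199, 0.375, 0.213 and 0.268 CPM in the 4 control libraries of day 4, a log2 change of -10.30 ± 0.37 (SE, adjusted p = 1.19e-12). With 60 counts on day 4 against 83166 on day 3, 0.0792% of its level was left (95% exact interval 0.0604 to 0.102%; intervals cover counting error only).

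Osi14 stands just before Osi15 (3R:6299128-6300738) and kept more. It was at 17.8, 19.1, 39.3 and 38 CPM in the control libraries of day 3 and at 1.04, 0.722, 0.64 and 1.32 CPM on day 4. This left 3.08% of its level (2.66 to 3.56%, log2 change -4.98 ± 0.43, adjusted p = 2.63e-08). In control midguts on day 4 Osi14 averaged 0.853 CPM per kb of exon and Osi15 0.214, the reverse of day 3. In Hnf4i midguts the day 4 averages were 0.375 and 0.225 CPM per kb, where 1 library at 0.924 CPM raised the average of Osi14. The groups did not overlap for either gene.

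At the other end of the cluster the transcripts disappeared from the libraries. Osi20 (3R:6340095-6341424), the last gene, was at 95.7, 194, 232 and 203 CPM in control midguts on day 3 and had 0 counts in each of the day 4 control libraries. Set against the limit of 3 counts over the group, this is at least 13185-fold lower. Osi19 (3R:6335362-6337196) was at 63.8, 106, 131 and 132 CPM and then at 0 counts, at least 7884-fold lower. Osi18 (3R:6330248-6331809) was at 47.3, 81.4, 107 and 105 CPM and then at 0 counts, at least 6208-fold lower. These are the 3 last genes of the cluster, and none left a count in a day 4 control library.

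Osi9 (3R:6260211-6262105), in the middle of the cluster, was at 58.7, 79.1, 111 and 121 CPM in control midguts on day 3. On day 4 it had 6 counts, 2 in replicate 2 and 4 in replicate 4, which left 0.0295% (0.0108 to 0.0643%) of its level. Osi6 and Osi7 had 2 counts each on day 4, against 10983 and 7965 on day 3, a ratio of 5003-fold (95% exact interval 1385 to 41319-fold) and 3628-fold (1004 to 29966-fold). Osi9, Osi6 and Osi7 thus stood with the 3 last genes and Osi15 among the 7 genes under 0.1%.

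The remaining expressed genes of the cluster were the ones of lowest level per kb on day 3, and they kept the largest shares. Osi24, the first of them along the chromosome, kept 8.59% (6.98 to 10.5%, log2 change -3.49 ± 0.33, adjusted p = 7.94e-08). Osi2, its neighbour, kept 1.35% (0.892 to 1.95%, log2 change -6.17 ± 0.47), and Osi17, the longest Osiris protein, kept 1.22% (0.801 to 1.78%, log2 change -6.30 ± 0.38). Osi14 is the exception to this order by level, since it was above these 3 on day 3. Genes of one cluster thus kept very different shares.

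**Figure D3:**
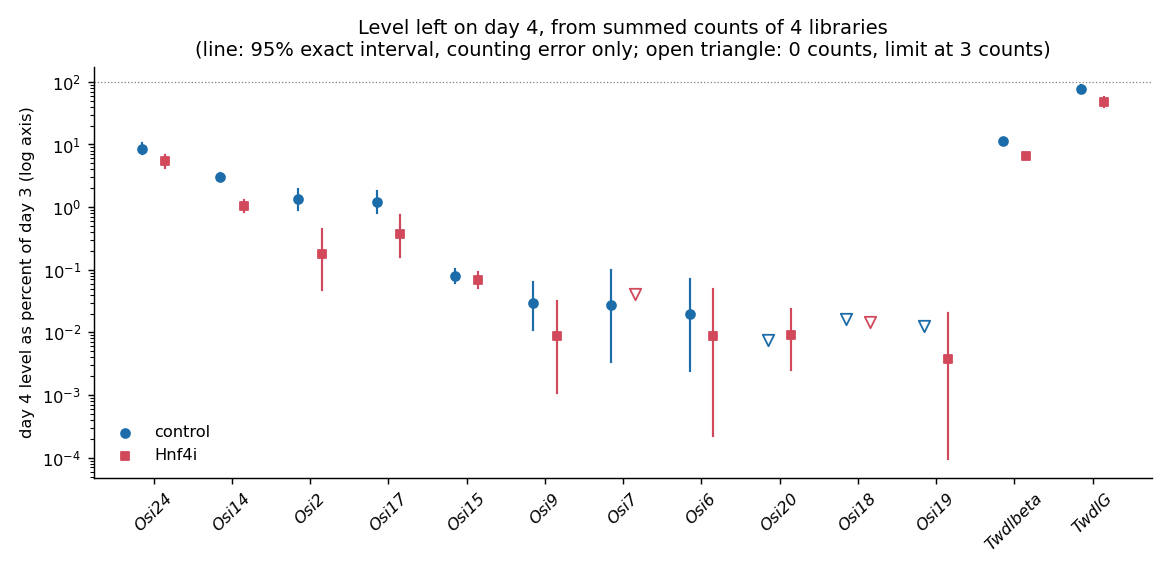
Level on day 4 as a percent of day 3 (log axis), from counts summed over 4 libraries, for the 11 expressed genes of the Osiris cluster, Twdlbeta and TwdlG; circles are control, squares Hnf4i, lines 95% exact intervals for counting error, and open triangles mark genes at 0 counts on day 4, placed at the limit of 3 counts. Osi24 sits highest among the Osiris genes at 8.59 and 5.37%, while TwdlG sits at 77 and 47.9%.

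Osi22, which lies outside the cluster, did not share the fall. It was at 0.166, 0.179, 0.521 and 0.235 CPM in the control libraries of day 3 and at 0.421, 0.264, 0.196 and 0.379 CPM on day 4, with overlapping groups (log2 change 0.18 ± 0.44, adjusted p = 0.748). In Hnf4i midguts it was at 0.457, 0.243, 0.503 and 0.259 CPM and then at 0.308, 0.562, 0.238 and 0.363 CPM (0.01 ± 0.43, adjusted p = 0.99). Osi22 had the lowest day 3 level of the tested Osiris genes, at between 10 and 33 counts in every library, and the difference between its change and that of the cluster genes was not tested.

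As a set, the 13 Osiris genes that were not tested had most of their counts on day 3. They had 161 counts in all on day 3 and 27 on day 4, and 9 of them had a count on day 3 against 4 on day 4. Osi23 had the most, 70 counts in 15 libraries, of which the 8 day 4 libraries held 22. In Hnf4i midguts Osi23 had 27 counts on day 3 and 17 on day 4. Osi13 (37 counts) and Osi16 (35 counts) had all their counts on day 3. Osi5 had 18 counts, Osi8 10, Osi12 6, Osi21 5, Osi3 4 and Osi1 3, and Osi4, Osi10a, Osi10b and Osi11 had 0 counts in all 16 libraries, which allows at most 0.00336 CPM over the series.

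Of the 7 other genes that lie within the limits of the cluster, 3 were tested, and their averages were lower on day 4. CG46026 and CG46396 passed the filter only through their day 3 level and so had to be lower. NPFR, the receptor for the neuropeptide F, was at 2.29 ± 0.344 CPM in control midguts on day 3 and 1.67 ± 0.214 CPM on day 4 (log2 change -0.46, adjusted p = 0.0518). CG46026 went from 189 counts to 6 and CG46396 from 54 counts to 0. In Hnf4i midguts NPFR fell from 3.09 ± 0.317 to 1.69 ± 0.545 CPM (-0.87, adjusted p = 0.000833), while CG46026 went from 173 counts to 0 and CG46396 from 88 counts to 0.

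**Figure D4:**
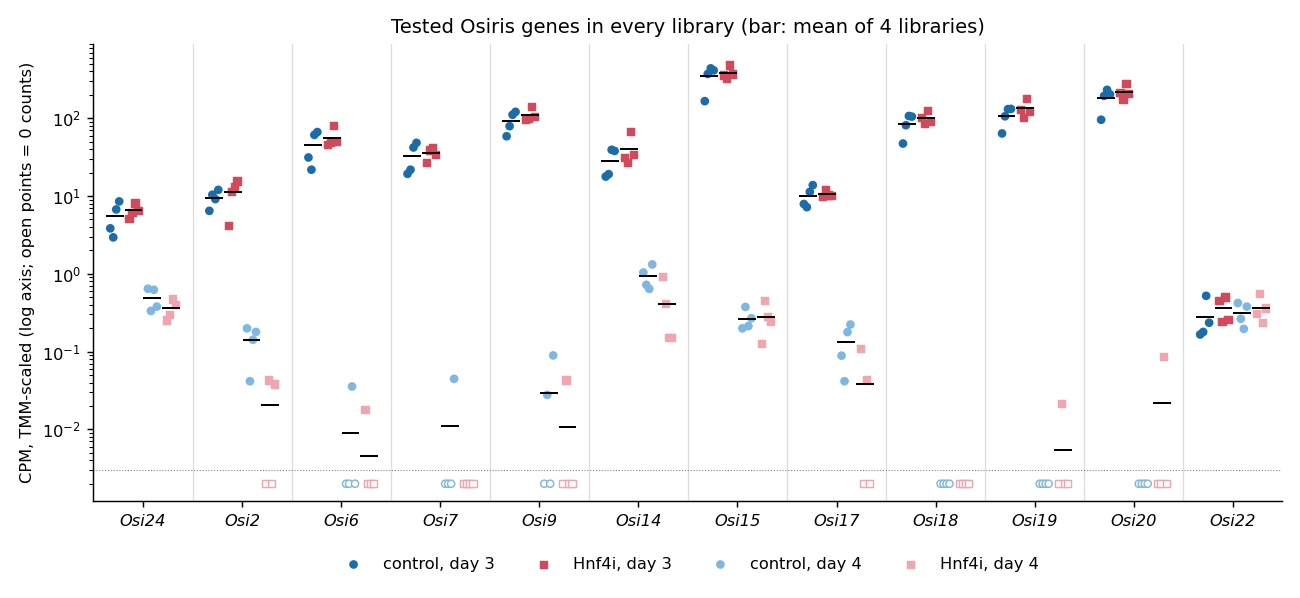
CPM (log axis) of the 12 tested Osiris genes in each of the 16 libraries, in chromosomal order; circles are control, squares Hnf4i, dark day 3, pale day 4, bars the mean of 4 libraries, and open points below the dotted line 0 counts. For the 11 genes from Osi24 to Osi20 every day 3 point lies above every day 4 point, and for Osi22 the 4 groups overlap. Of the 12 genes, 8 passed the filter only through day 3 and so had to differ. The share of all genes without overlap was not counted.

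Such a drop was rare among genes of this level. With a rule chosen after the values were seen, 24 of the 5653 genes that averaged 10 CPM or more in control midguts on day 3 had at most 3 counts over the 4 control libraries of day 4. Of these 24, 5 were Osiris genes (Osi6, Osi7, Osi18, Osi19 and Osi20), out of 9 Osiris genes with that day 3 level. The other 19 included the cuticle proteins Ccp84Ae and Cpr64Ab and dyl (dusky-like), which encodes a membrane protein of the apical extracellular matrix. They also included ImpL1, flz, Vajk2 and Vajk3, and most carry only a CG number, such as CG14147 at 102 CPM on day 3. These names were picked after the list was seen, and a shared role of the 19 genes was not tested. Under the same rule Hnf4i midguts gave 25 of 5668 genes, of which 14 were on both lists and 5 were Osiris genes (Osi6, Osi7, Osi9, Osi18 and Osi19).

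Tweedle expression on day 3 came almost wholly from one gene. Twdlbeta was at 41.4, 91.8, 82.1 and 84.9 CPM in control midguts on day 3 and made up between 91.7 and 96.7% of all Tweedle counts there. At 105 CPM per kb it stood between Osi20 and Osi19. On day 4 it was at 9.75, 7.25, 8.75 and 8.86 CPM, so that 11.3% was left (10.8 to 11.9%, log2 change -3.12 ± 0.24, adjusted p = 6.12e-09). The groups did not overlap. In contrast to most Osiris genes it stayed well above the filter in every library, with at least 258 counts.

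The other tested Tweedle genes were at low level. TwdlG was at 2.55, 3.14, 1.09 and 2.27 CPM in the control libraries of day 3 and at 1.64, 2, 1.67 and 1.47 CPM on day 4, with overlapping groups (log2 change -0.41 ± 0.32, adjusted p = 0.28). TwdlY went from 0.414, 0.269, 0.924 and 0.235 CPM to 0, 0.125, 0.0712 and 0 CPM, or 110 counts against 13. TwdlT went from 0.348, 0.215, 0.134 and 0.0939 CPM to 0.0222, 0.0278, 0 and 0.0893 CPM, or 47 counts against 7. TwdlY and TwdlT are the 2 Tweedle genes that passed the filter only through day 3, so their calls between days carry no weight and their values are a description.

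Twdlalpha and TwdlC were not called between days. Twdlalpha, whose exons overlap those of CG32568 on the same strand, was at 0.0497, 0.108, 0.0504 and 0.188 CPM in the control libraries of day 3 and at 0.111, 0.0833, 0.142 and 0.0223 CPM on day 4 (log2 change -0.13 ± 0.63, adjusted p = 0.871). TwdlC was at 0.199, 0.0359, 0.0336 and 0.0313 CPM and then at 0.155, 0.0278, 0.285 and 0.0446 CPM (0.74 ± 1.57, adjusted p = 0.703). TwdlX was too low to test, at 0.0331, 0.179, 0.252 and 0 CPM on day 3 and 0, 0.194, 0.196 and 0 CPM on day 4. At between 0 and 16 counts a library, these 3 genes were near the limit of 3 counts, which is between 0.0416 and 0.0669 CPM for a single library.

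**Figure D5:**
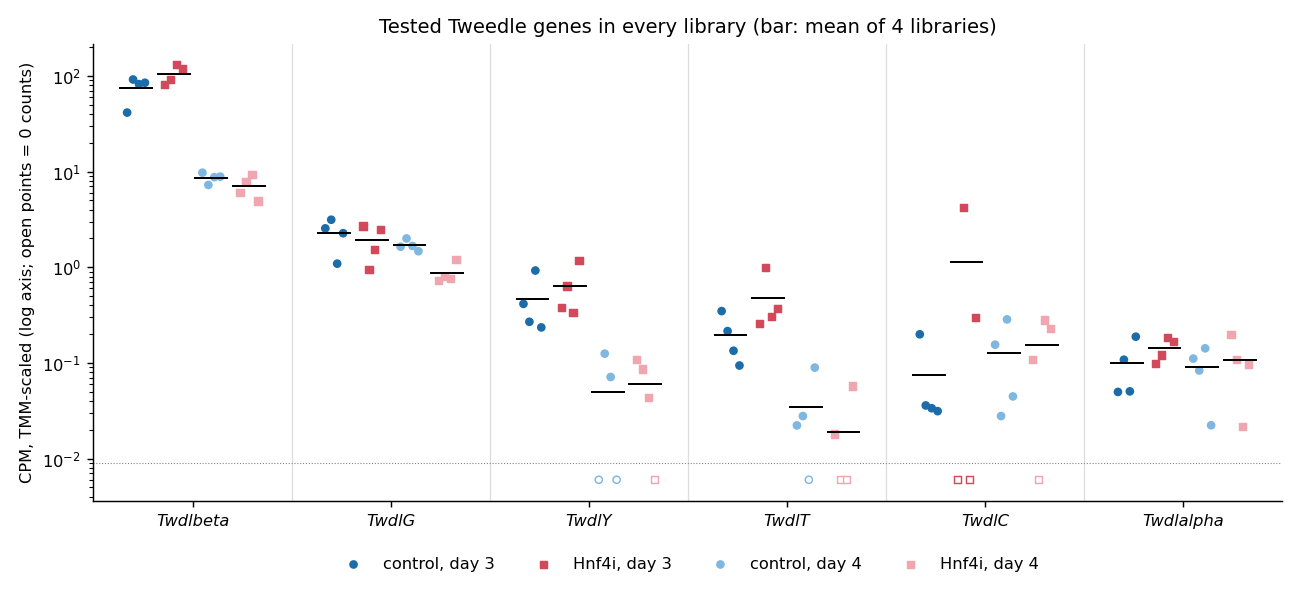
CPM (log axis) of the 6 tested Tweedle genes in each of the 16 libraries; circles are control, squares Hnf4i, dark day 3, pale day 4, bars the mean of 4 libraries, and open points below the dotted line 0 counts. Twdlbeta lies far above the others on both days, and the single high point of TwdlC at 4.22 CPM is Hnf4i replicate 2 of day 3.

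The row of 12 Tweedle genes from TwdlM to TwdlD, which includes TwdlD itself, gave 46 counts in 16 libraries together, with no more than 4 in a library for any gene. TwdlN had 10 counts, TwdlR 9, TwdlK 8, TwdlB 6, TwdlJ 4, TwdlM, TwdlP, TwdlO and TwdlH 2 each and TwdlD 1, and TwdlL and TwdlS had 0. Outside this row TwdlV had 141 counts, TwdlX 99, TwdlW 48, TwdlZ 32, TwdlU 12, TwdlF 3, TwdlE 3 and TwdlQ 0. TwdlE overlaps exons of lectin-28C on the opposite strand. The largest Tweedle group of the genome was thus the one with the least RNA per gene in these midguts.

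The second comparison followed the same days in Hnf4i midguts. The Osiris cluster fell there as well: all 11 expressed genes were called lower and 0 higher, as were 4 of 6 tested Tweedle genes with 0 higher (edgeR's quasi-likelihood test), where 23.9% of all tested genes were called lower and 18.8% higher. The filter limits these counts in the same way. Summed over the family, Hnf4i midguts went from between 937 and 1433 CPM to between 1.32 and 1.99 CPM. The 4 Tweedle genes were Twdlbeta, TwdlY, TwdlT and TwdlG. Without the 4 day 4 libraries with the highest fat body markers, which leaves 1 Hnf4i library on day 4 whose spread is taken from the other groups, the count was 2. The calls lost were TwdlG at -1.32 ± 0.63 (adjusted p = 0.1) and TwdlY at -3.80 ± 1.59 (adjusted p = 0.0617), with changes no smaller than with all libraries.

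Single Osiris genes in Hnf4i midguts ended near the detection limit on day 4. Osi15 went to 0.127, 0.454, 0.281 and 0.248 CPM (log2 change -10.47 ± 0.37, adjusted p = 1.1e-12), which left 0.0694% (0.0521 to 0.0906%). Osi20, at 215, 174, 279 and 209 CPM on day 3, had 4 counts on day 4, all in replicate 3, or 0.00909% (0.00248 to 0.0233%). Osi19, at 130, 103, 180 and 121 CPM, had 1 count, a ratio of 26864-fold with an interval from 4821 to 1061103-fold. Osi18, at 103, 86.2, 125 and 91.3 CPM, was at 0 counts in all 4 libraries, at least 6776-fold lower by the limit of 3 counts (5510-fold by the exact interval).

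Osi9, at 96.1, 99.2, 142 and 106 CPM on day 3, had 2 counts on day 4, both in replicate 2 (11212-fold, 3104 to 92589-fold). Osi7 was at 0 counts, at least 2412-fold lower by the limit of 3 counts (1961-fold by the exact interval). Osi6 had 1 count (11449-fold, 2055 to 452245-fold). Osi14 went from 31.5, 27.1, 67 and 34.4 CPM to 0.924, 0.411, 0.151 and 0.153 CPM, which left 1.04% (0.831 to 1.29%, log2 change -6.56 ± 0.49, adjusted p = 3.15e-09). As in control midguts, Osi24 kept the largest share of its day 3 level, 5.37% (4.17 to 6.82%). Osi17 kept 0.376% (0.162 to 0.742%) and Osi2 0.176% (0.0478 to 0.45%). The 7 genes with under 0.1% left were again Osi6, Osi7, Osi9, Osi15, Osi18, Osi19 and Osi20.

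In Hnf4i midguts Twdlbeta went from 81.5, 91, 131 and 119 CPM to 6.03, 7.83, 9.25 and 4.93 CPM, which left 6.48% (6.13 to 6.84%, log2 change -3.92 ± 0.25, adjusted p = 5.76e-10). TwdlG went from 2.7, 0.941, 1.52 and 2.46 CPM to 0.725, 0.8, 0.756 and 1.2 CPM (-1.12 ± 0.34, adjusted p = 0.00775), and here the libraries of the days overlapped. TwdlY went from 0.378, 0.637, 0.335 and 1.18 CPM to 0.109, 0.0865, 0.0432 and 0 CPM, or 147 counts against 12, with the limit from the filter given for control midguts. On average each of these 3 genes was lower on day 4.

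Replicate 2 of the Hnf4i libraries of day 3 carried most of the counts of TwdlC and TwdlV. TwdlC was at 0, 4.22, 0 and 0.296 CPM in the Hnf4i libraries of day 3, with 278 of its 294 counts in replicate 2. On day 4 it was at 0.109, 0, 0.281 and 0.229 CPM (log2 change -2.86 ± 1.31, adjusted p = 0.0664). Without that library the log2 change was 0.66 ± 1.21 (adjusted p = 0.655). TwdlT was at 0.258, 0.986, 0.305 and 0.37 CPM and then at 0.0181, 0, 0 and 0.0573 CPM, or 118 counts against 4, again with the highest level in replicate 2. TwdlV, which was not tested, had 110 of its 141 counts in the same library.

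In Hnf4i midguts Twdlalpha went from 0.0994, 0.121, 0.183 and 0.166 CPM to 0.199, 0.108, 0.0216 and 0.0955 CPM (log2 change -0.40 ± 0.60, adjusted p = 0.576). TwdlX was at 0.0596, 0.121, 0.0305 and 0.333 CPM and then at 0.145, 0.0432, 0.0432 and 0.0764 CPM. Neither gene separated the days.

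The third comparison set Hnf4i against control midguts on day 3. No Osiris and no Tweedle gene was called. In edgeR's quasi-likelihood test 0 of 12 Osiris genes had an unadjusted p under 0.05 and 2 of 6 Tweedle genes did, TwdlC and Twdlbeta, and DESeq2 called 0 as well. Among all tested genes 2.46% were called lower and 1.51% higher. The log2 differences of the 11 expressed genes of the cluster lay between 0.07 ± 0.24 (Osi17) and 0.49 ± 0.33 (Osi14), all on the side of higher levels in Hnf4i midguts, with adjusted p between 0.486 and 0.937. These genes share their libraries, so 11 values with the same sign are not 11 separate observations. Without control replicate 1, the library lowest for most of them, 8 of the 11 were above 0 and the range was -0.07 to 0.32.

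Osi15 was 1.11-fold and Osi20 1.21-fold higher in Hnf4i midguts on day 3, and for both the libraries of the genotypes overlapped (log2 difference 0.16 ± 0.22, adjusted p = 0.802, and 0.27 ± 0.23, adjusted p = 0.61). Twdlbeta was 1.41-fold higher with overlapping libraries (0.49 ± 0.22, adjusted p = 0.217), and 0.29 ± 0.18 without control replicate 1. TwdlC was at 3.88 ± 1.41 on the log2 scale (adjusted p = 0.115) and at 0.36 ± 1.26 without Hnf4i replicate 2. None of these differences passed the adjusted threshold.

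The fourth comparison set Hnf4i against control midguts on day 4. TwdlG was called lower, the only member called between genotypes. It was at 1.64, 2, 1.67 and 1.47 CPM in control and at 0.725, 0.8, 0.756 and 1.2 CPM in Hnf4i midguts, so the groups did not overlap (log2 difference -0.96 ± 0.34, edgeR adjusted p = 0.044). Among all tested genes 6.71% were called lower and 5.46% higher. The call lay close to the threshold: with each of the 16 libraries left out in turn the log2 difference stayed between -1.16 and -0.87, the adjusted p ranged from 0.022 to 0.109, and the call was lost in 9 of 16. Fat body markers moved in the same comparison, with 5 of 5 tested called higher in Hnf4i midguts (median log2 difference 5.10), and 2 of 7 visceral muscle markers were called lower. For cells that make cuticle, 1 of 7 tracheal and 2 of 10 epidermal markers were called lower and 0 higher. Of 4 tested foregut and hindgut markers, 2 were called higher and 0 lower. Without the 4 day 4 libraries with the highest fat body markers TwdlG was at -1.15 ± 0.64 (adjusted p = 0.251). The part of fat body or of these other cells in the result was not tested.

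Osiris genes on day 4 were few counts in both genotypes. None of the 12 was called by edgeR's quasi-likelihood test, 1 had an unadjusted p under 0.05, and DESeq2 called 2, Osi2 and Osi17. Osi2 was at 0.199, 0.0416, 0.142 and 0.179 CPM in control and at 0, 0.0432, 0 and 0.0382 CPM in Hnf4i midguts, which is 28 counts against 4 (log2 difference -2.58 ± 1.13, edgeR adjusted p = 0.105). Osi17 was at 0.0887, 0.0416, 0.178 and 0.223 CPM in control and 0.109, 0, 0.0432 and 0 CPM in Hnf4i midguts, 27 counts against 8 (-1.60 ± 0.78, edgeR adjusted p = 0.147). Osi14 (-1.10 ± 0.61, adjusted p = 0.205) and Osi24 (-0.45 ± 0.40, adjusted p = 0.444) also overlapped between genotypes. Osi15 averaged 0.264 ± 0.0796 CPM in the control libraries against 0.277 ± 0.135 CPM in the Hnf4i libraries (-0.01 ± 0.62, adjusted p = 0.993).

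Osi22 (log2 difference 0.23 ± 0.44, adjusted p = 0.744) and Twdlbeta (-0.30 ± 0.24, adjusted p = 0.393) overlapped between genotypes on day 4 too. For the genes with under 0.1% left other than Osi15 (Osi6, Osi7, Osi9, Osi18, Osi19 and Osi20), both genotypes had 6 counts or fewer over 4 libraries, and a difference was not detectable at this depth.

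The fifth comparison asked whether the change between days differed between the genotypes. No member was called in this interaction. In edgeR's quasi-likelihood test 2 of 12 Osiris genes, Osi2 and Osi14, and 1 of 6 Tweedle genes, Twdlbeta, had an unadjusted p under 0.05, and DESeq2 called 1 gene, Osi2. Among all tested genes 2.44% were called lower and 2.59% higher. Osi2 had the largest difference of these (log2 -2.81 ± 1.17, adjusted p = 0.172), a further fall in Hnf4i midguts. Osi14 was at -1.58 ± 0.69 (adjusted p = 0.194) and Twdlbeta at -0.80 ± 0.33 (adjusted p = 0.161). The smaller shares that Osi2, Osi14 and Twdlbeta kept in Hnf4i midguts, above, were therefore not shown to differ from control.

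Other genes of cuticle and apical matrix were measured from lists. Of 99 genes with symbols of cuticle proteins 31 were tested. Between the days 19 were called lower and 3 higher in control midguts, and 20 lower and 2 higher in Hnf4i midguts. Among all tested genes 22.2% were called lower and 17% higher in control, and 23.9% and 18.8% in Hnf4i midguts. The medians of the list were -2.51 and -3.26, beside 0.01 and -0.01 for all genes. Genes of these lists that passed the filter only through day 3, such as Ccp84Ae, had to differ. Their number was not counted, so the counts and medians are a description and not support for a change of the lists. The symbol rule also took Cpr, which is the cytochrome P450 reductase and is left out of these counts. Ccp84Ae, a cuticle protein, went from 175 ± 35.8 CPM in control midguts to 0 in all 4 libraries, and Cpr64Ad from 107 ± 9.03 to 0.0482 ± 0.044 CPM. Of 29 genes of chitin synthesis and the apical matrix, 22 were called lower and 1 higher in control and 26 lower and 2 higher in Hnf4i midguts. The shares of all tested genes given above stand beside these counts as well. Those called higher included mmy, which makes the sugar nucleotide that chitin is built from (51.2 ± 2.24 to 78.1 ± 5.37 CPM in control midguts). Dumpy (dpy), a giant protein of the apical matrix, fell from 51.5 ± 6.09 to 17.7 ± 6.31 CPM.

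Of 14 transcription factors with roles in cuticle gene expression 10 were tested. Of these, 6 were called lower and 1 higher between the days in control and 7 lower and 1 higher in Hnf4i midguts. The shares of all tested genes were 22.2% lower and 17% higher in control, and 23.9% and 18.8% in Hnf4i midguts. Hr4, an ecdysone-induced nuclear receptor, fell from 48.1 ± 7.9 to 0.709 ± 0.134 CPM and ftz-f1, another nuclear receptor of the moult, from 39 ± 5.67 to 13.2 ± 0.8 CPM in control midguts. Eip74EF, an early ecdysone response gene, rose from 8.24 ± 1.92 to 27.1 ± 8.7 CPM. In the genotype comparison on day 4, 5 of the 31 cuticle protein genes, 5 of the 29 chitin and matrix genes and 1 of the 10 regulators were called lower and 0 higher, beside 6.71% lower and 5.46% higher among all tested genes.

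Markers of cells that make cuticle were also measured. Of these, 7 epidermal and 3 tracheal markers are in the list of chitin and matrix genes as well. The tracheal markers trh and vvl and the epidermal marker ovo are also among the transcription factors above. The counts are therefore not separate observations. The 7 matched tracheal markers, all tested, summed to between 103 and 198 CPM on day 3 and between 22.4 and 51.3 CPM on day 4, and 6 of 7 were called lower in each genotype. Of these, trachealess (trh), the factor that sets tracheal identity, went from 6.86 ± 0.4 to 2.96 ± 0.349 CPM in control midguts, while breathless (btl), the tracheal FGF receptor, went from 3.74 ± 0.454 to 5.02 ± 0.461 CPM and was not called. The 10 epidermal markers summed to between 49.8 and 98.8 CPM on day 3 and between 25.2 and 38.1 CPM on day 4, with 8 of 10 called lower in each genotype. The 7 foregut and hindgut markers, 4 of them tested, summed to between 67.2 and 109 CPM on day 3 and between 81 and 117 CPM on day 4, with 0 called lower in either genotype. Among all tested genes 22.2% were called lower between the days in control and 23.9% in Hnf4i midguts. Markers that passed the filter only through day 3, such as dyl, had to differ here too. No marker of these 3 lists was at 0 in all libraries.

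The part of tracheal and epidermal cells in the day 4 levels of the Osiris and Tweedle genes was not tested. Visceral muscle markers summed to between 4877 and 6692 CPM on day 3 and between 3087 and 5789 CPM on day 4, and hemocyte markers to under 10 CPM in every library. Libraries of day 3 and day 4 also differed in the number of midguts pooled, 30 against 10, which cannot be told apart from the day.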

How the data were processed

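RNA was measured in 16 libraries of larval midgut, 4 groups of 4. The processing notes of the submitters name the build BDGP6, FastQC 0.11.7, MultiQC 1.12, Trimmomatic 0.39, STAR 2.7.10b, R 4.5.1 and DESeq2 1.49.3. Library preparation was stranded. The study lists Salmon among its software but does not say for which data, and the strand setting of the counting is not given in the sources used here. Deposited tables of the authors give read counts for every gene in each library, CPM equal to those counts scaled to the library totals, and their own fold changes and adjusted p-values, which were not used. Of counts between 1 and 10, 68.9% were even, against 50% of those between 101 and 1000, so intervals on small counts may be too narrow, and the cause was not tested. Entries that are not genes (6381 of 24254, at most 0.0489% of the counts of a library) were left out.

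The deposited counts were tested with edgeR 4.0.16 in R 4.3.3: filterByExpr by group with a minimum count of 10 and a minimum total of 15, TMM scaling, and glmQLFit and glmQLFTest with 1 mean per group over all 16 libraries, tested on simulated data. Exon lengths, positions and protein lengths came from the Ensembl annotation of BDGP6. A group at 0 counts was set to 3 counts over the group. Levels are mean ± SD and log2 changes fitted value ± SE. The study calls the libraries of a group biological replicates.

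The members and lists were chosen with earlier results of these data known. Every member was named, and values in every library were given for the 6 members of each family with the highest CPM per kb in control midguts on day 3, for those called between genotypes, and for tested members not called lower between days in either genotype. Genes named from the other lists were the most abundant of those called; marker genes, neighbours, Osi2, Osi17, TwdlV and the genes of the rule on at most 3 counts were chosen after their values were seen. Alternatives were size factors (RLE), DESeq2 1.42.0, other filters, no fold minimum, a replicate block, only the groups compared, and each library left out.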

Additional observations from a re-analysis of the deposited data

Results flagged for a closer look

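Of 49 sets of 4 libraries (a tested member or Hnf4 in 1 group, with a mean of at least 10 counts), 4 had a library far from the other 3 by Dixon's criterion at 95%, and chance gives about 1 in 20. Osi6 was at 80 CPM in Hnf4i replicate 3 of day 3 and at between 46.4 and 49.8 CPM in the other 3. TwdlT was at 0.986 CPM in Hnf4i replicate 2 of day 3 and at between 0.258 and 0.37 CPM in the others. TwdlC was at 4.22 CPM in the same library and at between 0 and 0.296 CPM in the others. TwdlG was at 1.2 CPM in Hnf4i replicate 4 of day 4 and at between 0.725 and 0.8 CPM in the others.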

How the results depend on the processing

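Osiris genes called between days were 11 to 13 in control and 11 to 12 in Hnf4i midguts over the 25 alternatives. No member or Hnf4 was called in opposite directions. With the filter used, 8 of the 12 Osiris genes passed only through day 3 and had to differ, so these counts are not support. Before any alternative, 22.2% of all tested genes were called lower in control and 23.9% in Hnf4i midguts. Tweedle genes called between days were 2 to 3 in control midguts, and in Hnf4i midguts 4, with 4 to 5 when a library was left out and 2 without the 4 day 4 libraries highest in fat body markers, an alternative added after seeing the data. Counts between genotypes on day 4 moved. Osiris genes called were 0, but 1 with the replicate block and 2 with DESeq2, and 0 to 1 with a library left out, where the call was Osi2 without Hnf4i replicate 1 of day 3 (adjusted p = 0.0219) and Osi17 without Hnf4i replicate 1 of day 4 (adjusted p = 0.0391). Tweedle genes called were 1 (TwdlG), but 2 without a filter on low counts (TwdlZ added), 0 to 1 with a library left out and 0 without the fat body libraries. In the interaction 0 Osiris genes were called, but 1 with DESeq2 and 0 to 1 with a library left out (Osi2, adjusted p = 0.0297 without Hnf4i replicate 1 of day 3). TwdlC was called between days in Hnf4i midguts without Hnf4i replicate 1 or 3 of day 3 (adjusted p = 0.0287 and 0.0259). The cause of these moves was not tested. Of 2119 values of single members under an alternative, 2098 stayed on the same side of the threshold. Libraries with the same replicate number showed no shared deviation: correlations lay between -0.168 and 0.086 over 24 pairs. Of 16 libraries, 2 correlated best with their own number. The labels do not say whether libraries of the same number were collected together, and these values cannot exclude it. Counts of day 4 limit the shares left for the 7 lowest Osiris genes.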

Other observations

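TwdlC was 1 of only 2 genes that a single library of day 3, Hnf4i replicate 2, held at 50 counts or more and at least 5 times above every other library. The other was Cpr56F, a cuticle protein gene, with 99 counts there (1.5 CPM) and 0 in the other 15 libraries. The same rule, chosen after the values were seen, found between 0 and 37 genes in the other libraries and no Osiris or Tweedle gene among them.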
